A study of Mus musculus with 12 samples.

Results

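Dock2, a guanine nucleotide exchange factor that switches on the small GTPase Rac, was followed in splenic B cells of mice together with other Dock, Elmo and Rac genes. All array probes whose transcript accession belongs to Dock1, Dock2, Dock8, Dock9, Dock10, Dock11, Elmo1, Elmo2, Rac1 or Rac2 were taken. That gave 13 probes among 55,681 non-control probes, and they covered 9 of the 10 genes (of 20,018 named genes on the array), since no probe was matched to Elmo2. Dock2 was chosen by its low signal in resting knockout cells relative to control. Resting knockout differences are therefore described without a test, as are the changes of Dock2 with stimulation, which use the same resting arrays.

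The study measured RNA from splenic B cells on 12 one-colour Agilent arrays, with 3 replicates in each of 4 groups, to examine PC4 (Sub1), a chromatin protein and transcriptional coactivator. Control mice were B1-8hi:Sub1fl/fl, and knockout mice were B1-8hi:Sub1fl/fl-Mb1-Cre. All groups thus carried B1-8hi, which places a rearranged immunoglobulin heavy chain against the hapten NP in the germline, and the floxed Sub1 alleles. Mb1-Cre is a recombinase expressed from the Cd79a locus in B-lineage cells, so loss of Sub1 and the presence of Cre in that locus cannot be told apart here. A mutation of Dock2 itself is known from some colonies of laboratory mice, and the sources used here give neither the substrain nor the colony of these animals. A colony difference at Dock2 and the Sub1 genotype therefore cannot be told apart in any Dock2 value below. Resting cells are labelled naïve and as measured without a differentiation stimulus, although the culture protocol is attached to every sample, and they are taken here as unstimulated. Stimulated cells were taken after 72 h, with NP-ficoll at 0.01 ng/mL, CD40 ligand at 0.2 ng/mL, IL-5 at 1.5 ng/mL, IL-4 at 5 ng/mL and IL-2 at 100 U/mL in the culture medium. The ages of the mice and any pooling of animals are not given in the sources used here. Since separate mice are not stated as the source of the replicates, each p-value here rests on how far these samples spread, and that spread may be technical.

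Rac GTPases drive the branched actin network that lets lymphocytes spread and migrate. DOCK2 is the main Rac activator downstream of chemokine receptors in lymphocytes, and ELMO1 is a scaffold that binds DOCK2 and DOCK1 and supports their activity. DOCK8, DOCK9, DOCK10 and DOCK11 belong to more distant branches of the family that act mainly on Cdc42, with Rac as a further target of DOCK10. Dock2 is expressed across blood cell types and not in B cells alone.

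Because the series names PC4 together with the transcription factors IKAROS and IRF4, the promoter of Dock2 is shown with short motifs of the kind such factors recognise. It covers the 250 bases before the RefSeq start, chr11:34783906-34784155 on the minus strand of GRCm38.p6, with capitals for every GGAA on either strand (TTCC when read on this strand), the core bound by ETS factors, with which IRF4 often pairs.

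Dock2 promoter: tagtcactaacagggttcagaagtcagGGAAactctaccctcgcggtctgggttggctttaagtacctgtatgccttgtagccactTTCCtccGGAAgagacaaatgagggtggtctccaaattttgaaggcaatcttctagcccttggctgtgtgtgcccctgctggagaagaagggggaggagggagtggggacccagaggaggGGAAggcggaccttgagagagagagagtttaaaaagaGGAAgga

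The Dock2 window held 5 GGAA cores, where the median over 32,851 mouse promoters of this length was 3 and 18% held at least 5. The short core of Ikaros sites, GGGAA, overlaps GGAA and was present 2 times; 56.2% of all promoters hold it. The longer Ikaros core TGGGAA was not among these letters (21.6% of promoters hold it), nor was the ETS-IRF composite, GGAA and GAAA with any 2 bases between them (2.3%), or the interferon response element, GAAA and GAAA with any 2 bases between them (2.98%). All motifs were searched on both strands. Promoter entries were matched for 8 of the 10 genes. Outside Dock2, the longer Ikaros core was present before the Dock1 start and before alternative starts of Elmo1 and Elmo2, and neither of the longer IRF motifs was present before any of the 14 starts.

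Levels are log2 intensities relative to the 75th percentile of the non-control spots on the same array, with mean ± SD over n = 3 arrays, and differences are log2 differences with SE. The arrays differed in detection, from 24.3% of spots well above background (control stimulated replicate 2) to 76.8% (knockout stimulated replicate 3). Replicates 1 and 2 of every group shared slide 1 and replicate 3 lay on slide 2, so within-slide differences are given where the sizes matter. Of 9 mature B cell markers, 7 (among them Ms4a1) were well above background on all 12 arrays, and Cr2 and Pax5 missed it on 1 control stimulated array. The targeted gene Sub1, on its brighter probe, read 6.07, 6.02 and 6.0 at rest in control samples and 5.37, 5.80 and 5.77 in knockout samples. After stimulation it read 8.19, 7.79 and 8.15 in control samples and 6.72, 6.87 and 6.92 in knockout samples. The knockout level was lower in stimulated cells by -1.21 (SE 0.19, limma adjusted p = 0.0116), and the adjusted p reached up to 0.0529 when knockout stimulated replicate 1 or 2 was left out. In resting cells the same probe differed by -0.38 (adjusted p = 0.271). The dimmer Sub1 probe differed by -0.86 at rest (adjusted p = 0.247) and by 0.09 after stimulation (adjusted p = 0.898). The labels do not place the floxed exons, so either probe may lie outside the deleted part.

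Dock2 had its highest signal in resting control cells and its lowest in resting knockout cells. The brighter of its probes (A_51_P114917) read 1.95, 2.11 and 1.87 in control resting, and -0.12, -0.34 and -0.07 in knockout resting cells. In stimulated cells it read 1.61, 1.20 and 1.48 in control, and 0.79, 0.67 and 0.70 in knockout samples. The order was therefore control resting, control stimulated, knockout stimulated and knockout resting, and no neighbouring groups in that order overlapped. As scanner intensities before scaling, the resting arrays gave 675, 828 and 877 in control and 167, 165 and 288 in knockout samples. This probe was well above background on all 12 arrays.

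The dimmer Dock2 probe (A_66_P138212) gave 0.79, 0.34 and 0.64 in control resting and -2.71, -2.40 and -1.38 in knockout resting cells. After stimulation it gave -1.14, -1.16 and -0.46 in control samples and -1.27, -1.71 and -1.85 in knockout samples. The groups again stood apart between genotypes, but the knockout stimulated and knockout resting groups overlapped on this probe. It was well above background on 3 of 3 control resting arrays, 1 of 3 knockout resting arrays and 2 of 3 arrays in each stimulated group, so its low values are less firm. Over the 12 arrays the levels of the Dock2 probes followed each other (r = 0.889, across arrays that fall into groups).

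**Figure D1:**
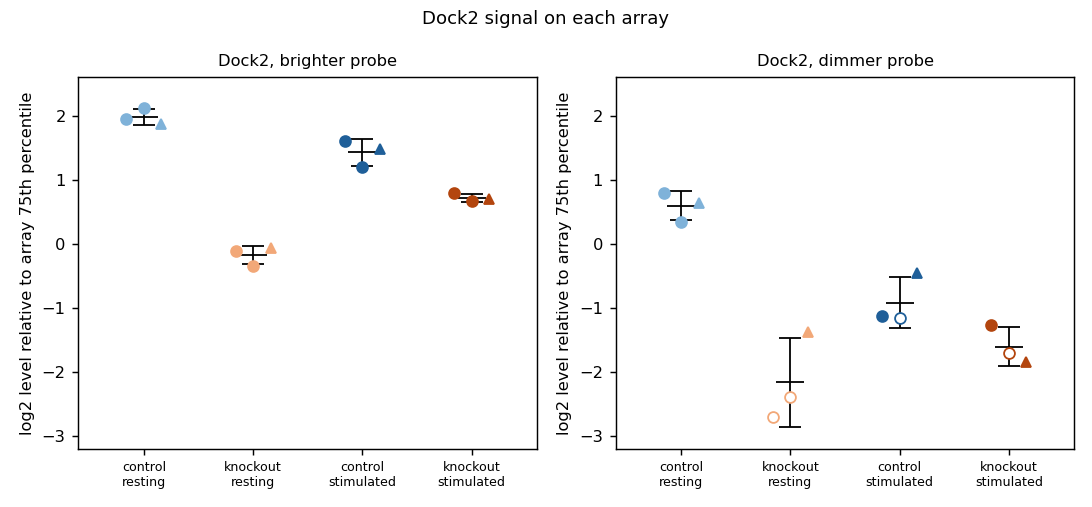
Log2 level of each Dock2 probe on every array, relative to the array's 75th percentile, by group; circles are slide 1 and triangles slide 2, filled symbols were well above background and open ones were not, and bars give mean ± SD of 3 arrays. On the brighter probe the knockout resting arrays lie between -0.34 and -0.07, below all other groups, and the control resting arrays lie between 1.87 and 2.11.

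In resting cells Dock2 was 4.46-fold lower in knockout than in control samples on the brighter probe, with means of -0.18 ± 0.14 and 1.98 ± 0.12 (n = 3 each). That is a difference of -2.16 (SE 0.18), with -2.26 within slide 1 and -1.94 within slide 2. The dimmer probe differed by -2.75 (SE 0.34, 6.74-fold), with -3.12 and -2.02 within the slides, from 0.59 ± 0.23 in control to -2.16 ± 0.69 in knockout cells. The size of the dimmer probe's difference is uncertain, because 1 of 3 knockout resting arrays was well above background. Among the 26,296 probes that passed the detection filter, the brighter probe had the fifth lowest resting difference. These are the values for which Dock2 was chosen, and they carry no test here. The median difference of all probes in this comparison was -0.22, and it moved between -0.83 and 0.13 with the way arrays were scaled. Relative to that median, the brighter probe lay between -2.08 and -1.56 and the dimmer probe between -2.86 and -1.52 over 5 scalings and background corrections.

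**Figure D2:**
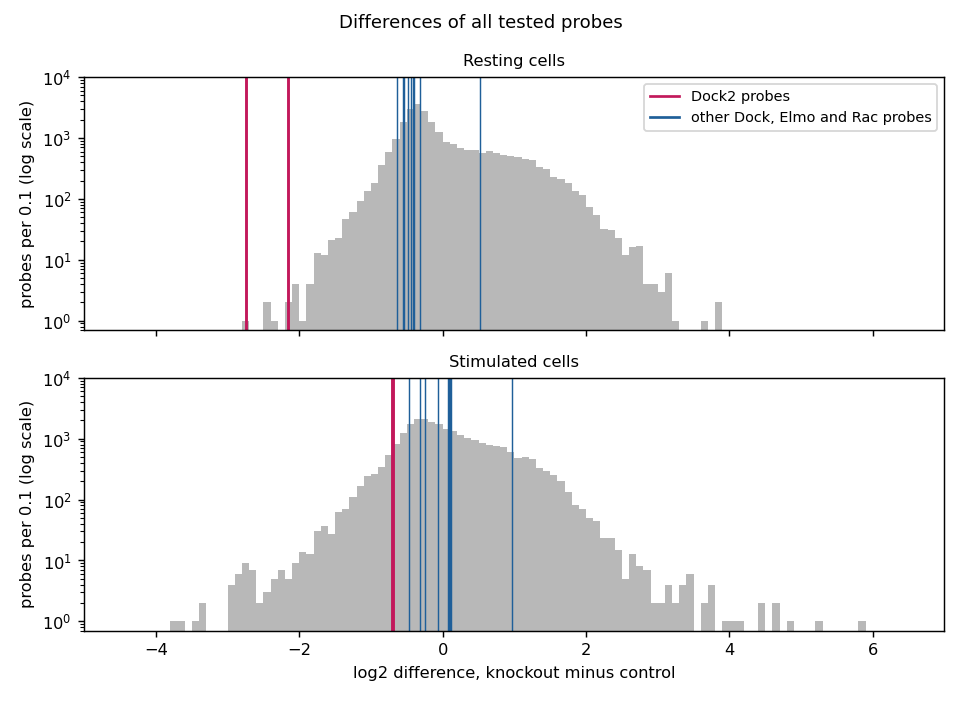
Distribution of knockout minus control log2 differences over the 26,296 tested probes in resting and in stimulated cells, in bins of 0.1 with a log count axis; magenta lines mark the Dock2 probes and blue lines the other Dock, Elmo and Rac probes. In resting cells the Dock2 lines at -2.75 and -2.16 lie at the left edge of the distribution, and in stimulated cells both lie at about -0.7, inside it.

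Marker genes of several cell types also differed between the resting groups. The summed level of 5 marginal zone B cell markers (Cd1d1, Dtx1, Hes5, Cd9 and S1pr3) was 78.5 to 150 in control and 45.0 to 53.4 in knockout samples, on a linear scale where 1 is the array's 75th percentile. The summed level of 9 mature B cell markers was 1580 to 1890 in control and 1170 to 1340 in knockout samples. The summed level of the 10 of 12 macrophage and monocyte markers that passed the filter was 34.1 to 53.7 in control and 70.3 to 100 in knockout samples, while Fcgr1 of that list was not above background. The part of these cells in the Dock2 values was not tested. In such bulk RNA, fewer cells of a type and less RNA per cell cannot be told apart.

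After stimulation the knockout difference of Dock2 was smaller and its test fell on either side of the threshold. Stimulated control samples averaged 1.43 ± 0.21 on the brighter probe and stimulated knockout samples 0.72 ± 0.06 (n = 3 each), a difference of -0.71 (SE 0.18, 1.63-fold), with -0.67 within slide 1 and -0.78 within slide 2. All 3 knockout arrays lay below all 3 control arrays, where 14% of all probes did so. The limma adjusted p over all 26,296 probes was 0.055, just above the threshold of 0.05, and with the replicate number as a block it was 0.0377 at the same difference. With the slide as a block it was 0.0444. It was 0.0258 without control stimulated replicate 2 (difference -0.82), and over 24 alternative settings it ran from 0.0113 to 0.385 and passed in 5. The dimmer probe differed by -0.69 (SE 0.34, adjusted p = 0.267), with -0.34 and -1.39 within the slides and 2 of 3 arrays above background in each group. Relative to the median of all probes, the brighter probe lay between -0.68 and -0.46 over the scalings and the dimmer between -1.12 and -0.43. Without subtracting that median they ran from -1.27 to -0.30 and from -1.24 to -0.28. Among probes well above background on all 12 arrays, as the brighter probe was, the median was -0.31 instead of -0.03. With that filter, which gave the adjusted p of 0.0113, limma called 127 of those probes higher and 1596 lower.

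Stimulation was accompanied by opposite changes of Dock2 in the genotypes, described here without a test. On the brighter probe the control groups differed by -0.55 (SE 0.18; slides -0.63 and -0.39) and the knockout groups by 0.90 (SE 0.18; slides 0.96 and 0.77). The stimulated arrays lay below all resting arrays in control cells and above all resting arrays in knockout cells. The share of all probes that stood apart with stimulation is not given here. On the dimmer probe the values were -1.51 (SE 0.34) and 0.55 (SE 0.34), and in knockout cells the slides disagreed in sign (1.06 and -0.47). The knockout difference was thus nearer to 0 after stimulation by 1.45 on the brighter and 2.06 on the dimmer probe, a step that shares all 12 arrays with the values above.

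The other exchange factors were measured at very different detection. Dock1, the exchange factor that clears apoptotic cells in many tissues, was well above background on 1 of 12 arrays, with levels from -5.49 to -2.28. Dock9 was above background on 5 of 12 arrays, with levels from -3.70 to -0.74. Neither passed the filter, so both have no test, and their groups overlapped in all 4 comparisons. In all, 11 member probes of 7 genes passed the filter.

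Dock10 and Dock11 were bright on both of their probes. In resting cells the brighter Dock10 probe read 4.31, 4.19 and 4.13 in control and 3.39, 3.58 and 3.74 in knockout samples. The brighter Dock11 probe read 4.50, 4.28 and 4.22 in control and 3.78, 3.87 and 3.91 in knockout samples. Dock8, a factor that keeps lymphocytes intact during migration, read 1.34, 1.25 and 1.03 in control and 0.60, 0.66 and 1.03 in knockout samples. The knockout arrays lay below the control arrays for Dock10 and Dock11 and met them for Dock8.

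Rac2, the Rac form of blood cells, was read by 10 spots on each array, whose log2 SD within an array had a median of 0.053. It gave 6.75, 6.67 and 6.51 in control resting and 6.23, 6.19 and 6.28 in knockout resting cells. Rac1, the widely expressed form, gave 4.64, 4.53 and 4.54 in control and 4.07, 4.16 and 4.27 in knockout resting cells on its brighter probe. Elmo1 was dim, with -1.63, -1.01 and -0.95 in control and -0.59, -0.58 and -0.87 in knockout resting cells. It alone among the 7 genes lay higher in resting knockout cells on all arrays.

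Read against all probes, the resting differences outside Dock2 were small. Of the 11 member probes, 9 had knockout arrays that all lay below the control arrays, where 27.2% of all probes did so. Both Dock2 probes are among these 9 and were chosen on this comparison, so the count is no support for the members as a set. For 1 probe (Elmo1) the knockout arrays all lay above, where 9.4% of all probes did so. Dock10 differed by -0.64 (SE 0.21) and -0.56 (SE 0.19), Dock11 by -0.48 (SE 0.19) and -0.54 (SE 0.21), Dock8 by -0.44 (SE 0.28) and Rac2 by -0.41 (SE 0.18). Relative to the median of all probes these became -0.47 to -0.24 and -0.40 to -0.19 for the Dock10 probes, -0.35 to -0.07 and -0.31 to -0.15 for the Dock11 probes and -0.25 to 0.02 for Rac2 over the scalings. Rac1 differed by -0.40 (SE 0.18) on the brighter probe and -0.31 (SE 0.21) on the dimmer, which changed sign to 0.04 under quantile normalization. Elmo1 differed by 0.52 (SE 0.32), and by -0.09 when arrays were scaled to their medians. These arrays are the ones on which Dock2 was chosen, and the differences carry no test.

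**Figure D3:**
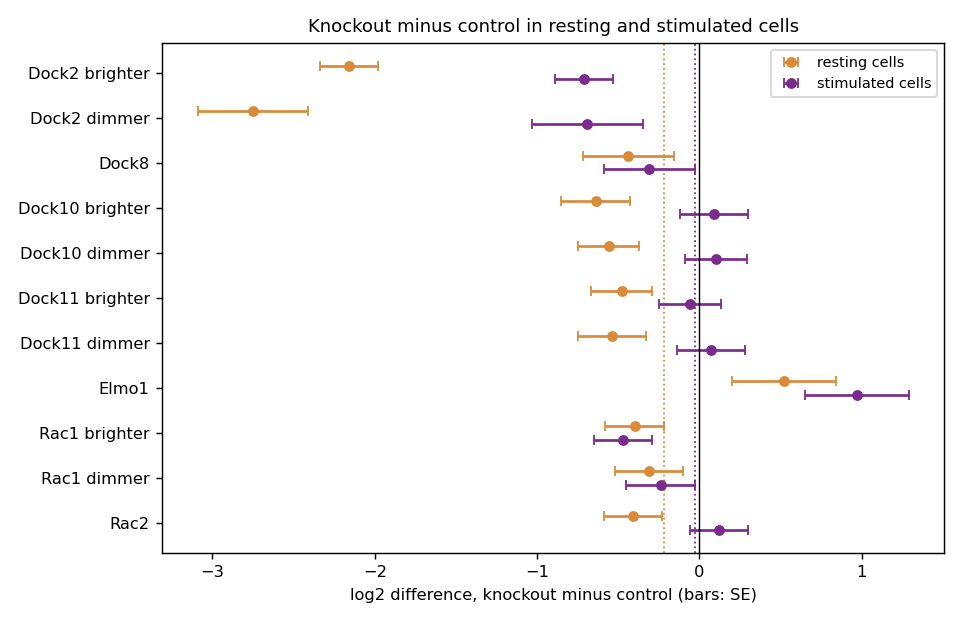
Knockout minus control log2 difference of the 11 tested member probes in resting (orange) and stimulated (purple) cells; bars are SE from the fit on 12 arrays and dotted lines mark the median difference of all probes. Both Dock2 probes stand at -2.75 and -2.16 in resting cells, apart from the other members between -0.64 and 0.52, and at -0.69 and -0.71 in stimulated cells.

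In stimulated cells no member probe passed the test between knockout and control in the fit without a block. With the replicate block 1 (the brighter Dock2 probe) passed, where the block called 2127 of all probes. Without the block, called by limma were 0 of 11 member probes, where 3.54% of all probes were called (33.5% of them higher, and 11% to 83.9% over the scalings), and 3 of 11 had an unadjusted p under 0.05 (Dock2, Elmo1 and Rac1), where 22% of all probes did. Elmo1 read -1.92, -1.75 and -1.17 in control and -0.96, -0.98 and -0.01 in knockout stimulated cells, a difference of 0.97 (SE 0.32, adjusted p = 0.122). Only 1 of the 3 control arrays was well above background for Elmo1, against 3 of 3 knockout arrays. Rac1 read 5.78, 5.34 and 5.29 in control and 5.08, 4.96 and 4.95 in knockout stimulated cells on its brighter probe, a difference of -0.47 (SE 0.18, adjusted p = 0.166). For both genes the knockout arrays did not overlap the control arrays. Over the 11 probes, groups stood apart with the knockout higher for 1 (10.6% of all probes) and lower for 3 (14% of all probes).

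Markers of other cells also moved in the stimulated samples. The summed level of the macrophage and monocyte markers was 10.9 to 26.4 in control and 26.9 to 34.7 in knockout samples. Of its 10 tested members, 5 were called higher, among them C1qa and Adgre1. A median of 3 of the 10 were well above background per control array, against 9 per knockout array, so no sizes are given. Some may have passed the filter only through groups where they were higher, so these calls are no support for a rise. Of all probes, 3.54% were called in this comparison in either direction. The summed level of the 6 tested natural killer cell markers was 35.0 to 36.5 in control and 218 to 422 in knockout samples, with Klrd1 not above background and Nkg7, Gzma and Gzmb higher by 1.57, 3.1 and 3.14. Of these 6, 3 were called higher and 0 lower, and a median of 4 were well above background per control array. The sum therefore does not stand for the whole list. Elmo1 is also expressed in macrophages and T cells, and the part of such cells in its difference was not tested. Of the plasma cell markers, 4 of 5 were called lower in knockout samples, with a summed level of 180 to 238 against 359 to 579 in control. The summed level of 8 T cell markers was 55.5 to 68.5 in control and 80.2 to 92.9 in knockout samples, with 1 of the 8 called higher and 0 lower.

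The remaining members had small differences in stimulated cells. Dock8 differed by -0.31 (SE 0.28, adjusted p = 0.522), with 1.05, 0.11 and 0.59 in control and 0.62, -0.19 and 0.38 in knockout samples. The Dock10 probes differed by 0.09 and 0.10 (SE 0.21 and 0.19, adjusted p = 0.812 and 0.786), the Dock11 probes by -0.06 and 0.07 (SE 0.19 and 0.21, adjusted p = 0.869 and 0.854), and Rac2 by 0.12 (SE 0.18, adjusted p = 0.725). The groups overlapped for each of these probes, and the signs for Dock8, Dock10, Rac2 and both Dock11 probes turned under another scaling. A simulation with known changes recovered 11 of 100 probes changed by 1 and 60 of 100 changed by 2 on the log2 scale, over probes of all spreads. Only 200 probes were changed in it, where 930 were called in the data, so its adjustment for many probes was stricter. These rates therefore do not give the recovery in the data.

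**Figure D4:**
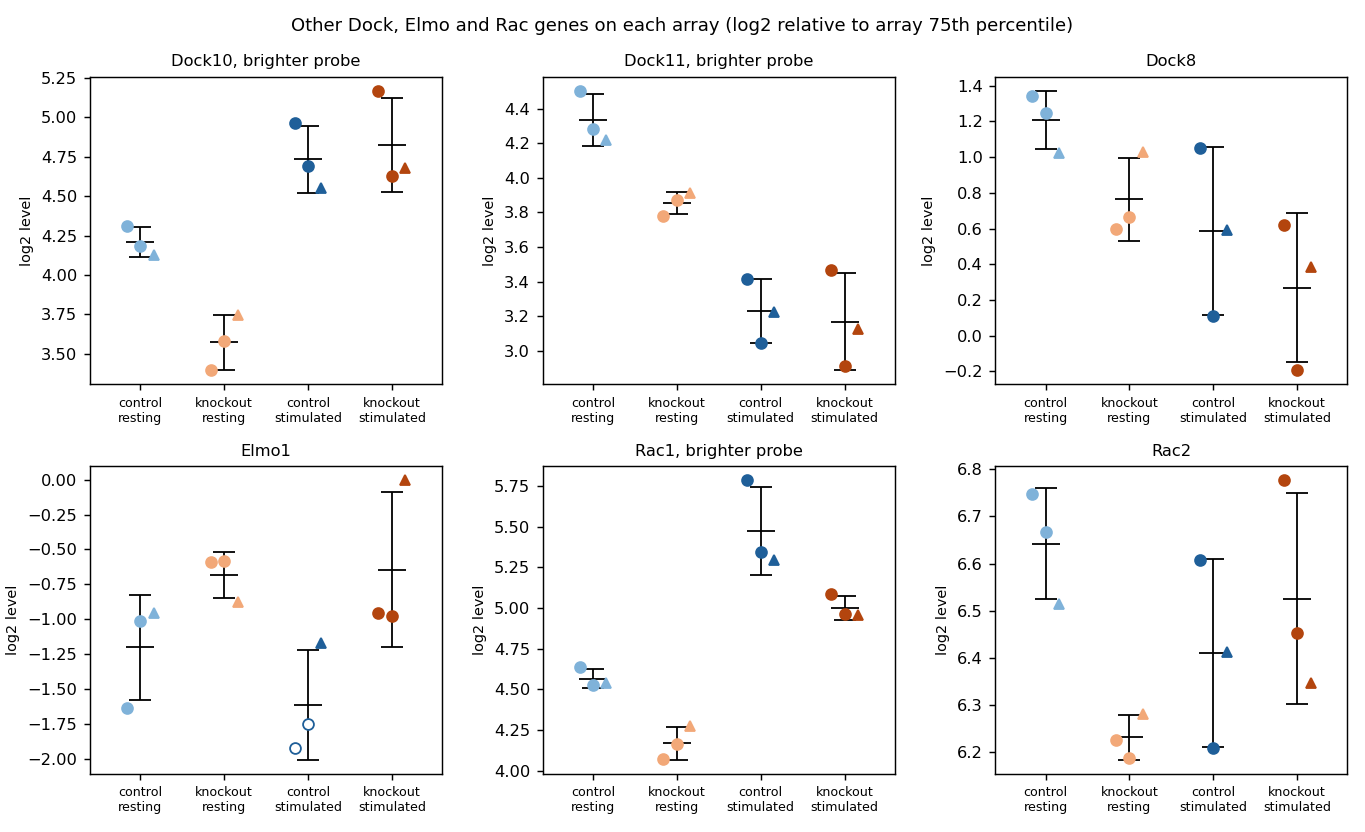
Log2 level on every array of Dock10, Dock11, Dock8, Elmo1, Rac1 and Rac2 (brighter probe where there are 2), relative to the array's 75th percentile, in the 4 groups; circles are slide 1, triangles slide 2, open symbols were not well above background, bars are mean ± SD of 3 arrays, and each panel has its own axis. The Dock11 arrays are lower and the Rac1 arrays higher with stimulation in both genotypes, and the Dock10 arrays of knockout cells move from 3.39 to 3.74 at rest to 4.63 to 5.17.

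With stimulation, 3 of the other member genes had a called probe in at least 1 genotype, not on every probe or in both genotypes for each. Of the 9 tested probes outside Dock2, 1 was called higher and 2 lower in control cells, where 15.2% and 13.1% of all probes were called. In knockout cells 3 were called higher and 1 lower, where 11.1% and 4.98% were. In either direction 28.3% of all probes were called in control cells, so the control count is near that share and no result about the members. Of all called probes the share that was higher was 53.6% in control and 69% in knockout cells, and it ran from 29.4% to 54.3% and from 37.2% to 69% over the scalings.

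Dock11, a Cdc42 activator of B cells, fell with stimulation. In control cells its brighter probe went from 4.33 ± 0.15 to 3.23 ± 0.18 and its dimmer from 4.06 ± 0.14 to 2.87 ± 0.25 (n = 3 each). The brighter thus fell by 1.11 (SE 0.19, limma adjusted p = 0.00164) and the dimmer by 1.20 (SE 0.21, adjusted p = 0.00162), and relative to the median of all probes they lay between -1.33 and -1.14 over the scalings. In knockout cells the brighter probe fell by 0.69 (SE 0.19, adjusted p = 0.0357), while the dimmer gave -0.59 (SE 0.21, adjusted p = 0.0891). The knockout call held in 14 of 24 settings and was lost when any resting array, or knockout stimulated replicate 2 or 3, was left out, with adjusted p up to 0.136. Whether the genotypes differed in this fall was not tested.

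Rac1 rose in both genotypes on its brighter probe. It went from 4.57 ± 0.06 to 5.47 ± 0.27 in control and from 4.17 ± 0.10 to 5.00 ± 0.07 in knockout cells (n = 3 each). The change was 0.91 in control (SE 0.18, limma adjusted p = 0.00322) and 0.83 in knockout cells (SE 0.18, adjusted p = 0.00962). On the dimmer Rac1 probe the values were 0.17 in control (SE 0.21, adjusted p = 0.618) and 0.24 in knockout cells (SE 0.21, adjusted p = 0.535), so the probes of this gene disagree. Rac2 differed by -0.23 (SE 0.18, adjusted p = 0.417) in control and 0.29 (SE 0.18, adjusted p = 0.358) in knockout cells and passed in neither.

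Dock10, an exchange factor that interleukin-4 is known to induce in B cells, rose in knockout cells on both probes. Its brighter probe went from 3.57 ± 0.17 to 4.83 ± 0.30 and its dimmer from 2.59 ± 0.28 to 3.62 ± 0.12 (n = 3 each). The brighter thus rose by 1.25 (SE 0.21, limma adjusted p = 0.00217) and the dimmer by 1.03 (SE 0.19, adjusted p = 0.00453). In control cells the brighter probe differed by 0.53 (SE 0.21, adjusted p = 0.0838) and the dimmer by 0.37 (SE 0.19, adjusted p = 0.193). Their stimulated arrays lay above all resting arrays, and the share of all probes that did so is not given here. The stimulated levels were 4.74 ± 0.21 in control and 4.83 ± 0.30 in knockout cells, and the resting levels 4.21 ± 0.10 and 3.57 ± 0.17. Whether the rise differed between genotypes was not tested.

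Dock8 and Elmo1 did not pass in either genotype. Dock8 differed by -0.62 (SE 0.28, limma adjusted p = 0.137) in control and -0.49 (SE 0.28, adjusted p = 0.306) in knockout cells. Elmo1 differed by -0.41 in control (SE 0.32, adjusted p = 0.4) and 0.04 in knockout cells (SE 0.32, adjusted p = 0.962). Scaling every array to its median ended all 7 calls outside Dock2 (adjusted p from 0.0577 to 0.237, and 0.478 for Dock11 in knockout cells). The changes themselves stayed near their size, at -1.09 and -1.18 for Dock11 and 0.92 for Rac1 in control cells, and 1.31 and 1.09 for Dock10, -0.63 for Dock11 and 0.89 for Rac1 in knockout cells.

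**Figure D5:**
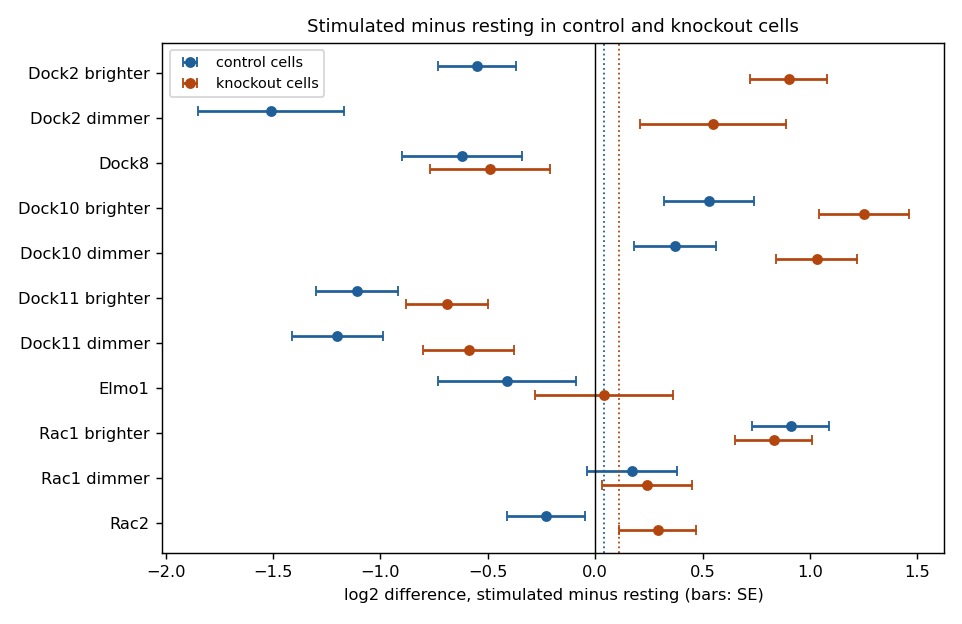
Stimulated minus resting log2 difference of the 11 tested member probes in control (blue) and knockout (red) cells; bars are SE from the fit on 12 arrays and dotted lines mark the median difference of all probes. The Dock2 values are on opposite sides of 0 in the genotypes (-0.55 and 0.90 on the brighter probe), and the Dock11 and brighter Rac1 probes lie on the same side in both.

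The wider Rac pathway was read from 81 genes in 8 lists, of which 69 passed the filter, each by its brightest probe. In the stimulated knockout comparison 1 of the 69 was called, where 3.54% of all probes were. This was Ccr7, the chemokine receptor that guides B cells to the T cell zone. It read 4.07 in control and 5.07 in knockout samples, a difference of 1.00 (SE 0.21, limma adjusted p = 0.0311; slides 1.23 and 0.55). That call held in 13 of 24 settings, and the adjusted p ran from 0.0159 to 0.116 as single arrays were left out. It was lost without any single control resting or knockout stimulated array, and without control stimulated replicate 1 or knockout resting replicate 2. With the replicate number as a block, 2 of the 69 were called. The split moved with the scaling, to 1 higher and 1 lower under quantile normalization, 2 lower under median scaling and 8 higher with the percentile over spots detected on all arrays. In the same order, these scalings called 329 higher and 269 lower, 95 higher and 765 lower, and 2285 higher and 439 lower of all 26,296 probes. The median difference of the 69 was -0.10, beside -0.03 over all probes.

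With stimulation, 19 of the 69 fell and 3 rose in control cells (median -0.32, beside 0.04 over all probes), and 10 fell and 3 rose in knockout cells (median -0.08, beside 0.11). Of all probes, 13.1% were called lower and 15.2% higher in control cells, and 4.98% and 11.1% in knockout cells. Under quantile normalization 34 fell and 2 rose in control cells and 23 fell and 2 rose in knockout cells, and under median scaling 12 fell and 1 rose and 2 fell and 2 rose. Of all 26,296 probes, quantile normalization called 4304 lower and 3251 higher in control and 2423 lower and 2787 higher in knockout cells. Median scaling called 1787 lower and 2127 higher in control and 669 lower and 1272 higher in knockout cells. Among these lists, adaptors and chemoattractant receptors, which stand upstream of Dock2, had the most calls. There 9 of 14 were lower in control and 7 of 14 in knockout cells, where 13.1% and 4.98% of all probes were, with medians of -1.48 and -0.77. This was not particular to that list. Of mature B cell markers, 7 of 9 were called lower and 0 higher in control cells (median -1.90). In knockout cells 3 of these 9 were called lower and 0 higher (median -0.68). Of marginal zone markers, 4 of 5 were called lower and 1 higher in control cells. The lists were chosen with earlier results of these data known. Cxcr5, the receptor that leads B cells into follicles, fell by 1.87 (SE 0.19, limma adjusted p = 4.8e-05) in control and by 1.29 (SE 0.19, adjusted p = 0.0011) in knockout cells. Ccr7 fell by 2.24 in control (adjusted p = 3.3e-05) and by 0.94 in knockout cells (adjusted p = 0.0118), and Cnr2, a cannabinoid receptor of B cells, fell by 1.72 and 1.28 (adjusted p = 0.000134 and 0.00178). Ccr6, a receptor for the chemokine CCL20, fell by 1.78 in control (adjusted p = 0.00144) and by 1.62 in knockout cells (adjusted p = 0.00485).

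In the list of other Rac and Cdc42 exchange factors, which leaves out the Dock genes, the called genes were lower with stimulation. Called Rac inhibitors included a higher gene and lower ones. Swap70, an exchange factor of B cells, fell by 1.24 in control (limma adjusted p = 0.000613) and by 0.74 in knockout cells (adjusted p = 0.0217), and Trio fell by 1.46 in control cells (adjusted p = 0.00756). The Swap70 call in knockout cells was lost without replicate 2 or 3 of either knockout group (adjusted p up to 0.0749). These were 2 of 11 tested exchange factors in control cells and 1 of 11 in knockout cells, where 28.3% and 16.1% of all probes were called in either direction. Of 11 Rac inhibitors, 1 rose and 2 fell in control cells, and 1 rose and 1 fell in knockout cells. Racgap1, a Rac GTPase-activating protein of the dividing cell's midzone, rose by 4.15 in control and 3.80 in knockout cells (adjusted p = 3e-06 and 1.1e-05). Arhgap25, a Rac GTPase-activating protein of blood cells, fell by 1.33 and 0.98 (adjusted p = 0.00135 and 0.0135, the second lost at 0.0551 without knockout stimulated replicate 2), and Bcr fell by 0.84 in control cells (adjusted p = 0.00864).

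Among the remaining Dock and Elmo genes, Dock6 rose by 1.33 (SE 0.43, limma adjusted p = 0.0391) in control cells, a call that held in 13 of 24 settings and was lost without replicate 1 of any group, control resting replicate 2 or control stimulated replicate 3 (adjusted p up to 0.127). Dock5 was not well above background on any stimulated control array and was at least 1.52-fold lower there than in resting control cells (adjusted p = 0.0122), a call lost without both arrays of control replicate 1. In knockout cells Dock5 was also called lower (adjusted p = 0.0174), with 2 of 3 stimulated arrays well above background, so the size of its fall is not given. That call was lost without replicate 2 of either knockout group (adjusted p up to 0.0581). Dock5 passed the filter only through the resting groups, where it was higher, so neither call is support for a fall.

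Among genes downstream of Rac, 1 of 8 WAVE, 3 of 6 WASP, WIP and PAK, and 2 of 9 Arp2/3 genes were called in control cells, where 28.3% of all probes were. Nckap1l, the blood cell subunit of the actin-regulating WAVE complex, fell by 0.81 in control cells (limma adjusted p = 0.00766). Abi2 was called higher in knockout cells (adjusted p = 0.0195), with 1 of 3 resting arrays well above background, so the size of its rise is not given. It passed the filter only through the stimulated knockout arrays, where it was high, so this call is no support for a rise. The Abi2 call was lost without knockout resting replicate 1 or 2 or knockout stimulated replicate 2 (adjusted p up to 0.0815). Was, Wipf1 and Wipf2, which encode the actin regulator WASP and its binding partners, fell by 0.58, 0.75 and 0.84 in control cells (adjusted p = 0.0419, 0.00777 and 0.0191). In the Arp2/3 complex, which nucleates actin branches, Arpc1a rose by 0.98 in control and 0.73 in knockout cells (adjusted p = 0.00548 and 0.0393) and Arpc5l fell by 0.63 in control cells (adjusted p = 0.0179). The calls of Was and of Arpc1a in knockout cells held in 12 and 11 of 24 settings, with adjusted p up to 0.115 and 0.151 as single arrays were left out. Arpc5l was lost without any single control resting array (adjusted p up to 0.0621), and Wipf2 without control resting replicate 1 or 2 or control stimulated replicate 2 or 3 (up to 0.0828). The stimulated cultures also differed from resting cells in their marker sums, and the part of that in these changes was not tested.

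The genes whose levels most resembled those of Dock2 were found by Pearson correlation with its brighter probe over the 12 arrays, among 12,294 named genes. They were Trim59 (r = 0.949), Lrrc75a (r = 0.903), Mical1, an actin-oxidising enzyme (r = 0.897), Zfp143, a zinc finger transcription factor (r = 0.896), and Cotl1, an actin-binding protein (r = 0.895). At rest Trim59 averaged 4.39 ± 0.08 in control and 3.65 ± 0.19 in knockout cells, and after stimulation 4.22 ± 0.12 and 3.95 ± 0.06 (n = 3 each). That is the same order of groups as Dock2 over a narrower range. The arrays share 4 groups and 2 slides, so these values are a description of likeness only.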

How the data were processed

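Total RNA of 12 samples was amplified, labelled with Cy3 and hybridised to Agilent arrays, per the labels' protocols. The deposited values are background-subtracted processed intensities on a linear scale, made with Agilent Feature Extraction 10.7.3.1 per the file headers, while the submitters' processing notes name version 9.1. Values of the deposited series matrix differed from these intensities by at most 0.497%. The headers name build mm9, so no coordinates were taken from the arrays.

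Spots called outliers were set to missing (2763 of all spots), control spots (3671 of 62,976) were left out, and log2 intensities were taken relative to each array's 75th percentile. Spots of a probe were averaged, each probe was a feature, and a probe was tested if any group had it well above background in each of its 3 arrays (26,296 probes, of which 15,610 were named through RefSeq accessions). All 12 arrays entered a single limma 3.58.1 fit (R 4.3.3) of 4 group means with eBayes, 8 residual degrees of freedom and Benjamini-Hochberg adjustment over all probes at a threshold of 0.05. Adjusted p-values throughout come from this limma fit. Called probes numbered 3 in the resting, 930 in the stimulated, 7452 in the control stimulation and 4222 in the knockout stimulation comparison. The fit was tested on simulated data. Figures were drawn with matplotlib 3.10.9.

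The members and gene lists were chosen with earlier results of these data known. The text names every member, up to 3 called genes of each list and comparison by smallest adjusted p, Sub1, and the 5 genes most like Dock2. Marker lists covered mature and marginal zone B cells, plasma cells, macrophages and monocytes, granulocytes, T cells, natural killer cells, erythroid cells, platelets, and endothelium and stroma. A dim probe's bound was taken at the lowest level among probes well above background on the same array. The array number limits the precision.

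The labels do not say that replicate numbers pair samples. The check was whether arrays with the same number deviate together from their groups, as a correlation above 0.1 in every pair. In the stimulated knockout comparison the pairs gave 0.35, 0.33 and 0.48, and control stimulation gave 0.41, 0.42 and 0.50, so both passed this check. At rest the values were -0.11, 0.20 and 0.39, and knockout stimulation gave 0, 0.15 and 0.38, so neither did. Replicate 3 of every group lay on slide 2 and the others on slide 1. A shared slide can give such correlations, so the check cannot tell pairing of samples from the slide. Alternatives were a block for the replicate number or for the slide, quantile normalization, median scaling, a percentile over spots detected on all arrays, normexp correction (offset 50), the values of the series matrix, dropping the filter, a filter on all 12 arrays, the brightest probe of each gene, eBayes with trend and robust settings, each slide alone, and leaving out arrays. Some results are not reported here.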

Additional observations from a re-analysis of the deposited data

Results flagged for a closer look

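Dock2 moved in opposite directions with stimulation in the genotypes. On its brighter probe the 3 stimulated control arrays all lay below the 3 resting control arrays, with a change of -0.55, and the 3 stimulated knockout arrays all lay above the 3 resting knockout arrays, with a change of 0.90. The share of all probes that stood apart in this way is not given here. Choosing a gene for its resting levels by itself favours changes of opposite sign. The difference between these changes was not tested, because the resting values are those for which the gene was chosen.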

How the results depend on the processing

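Dock2 on its brighter probe passed the stimulated knockout test at -0.71 with the replicate block (adjusted p = 0.0377), the slide block (0.0444), the filter on all 12 arrays (0.0113) and the trend and robust setting (0.0359). The called member probes there rose from 0 to 1 under each of those 4 settings and to 2 with the percentile over detected spots, and called Dock2 probes from 0 to 1 under the same 4. With the filter on all 12 arrays, the median of all probes in that comparison was -0.31, with 127 called higher and 1596 lower. Leaving out single arrays gave 0 to 1 called member probes, 0 to 1 Dock2 probes and differences of -0.82 to -0.62. Called pathway genes there numbered 2 with the replicate block, slide block, quantile normalization, median scaling or trend and robust setting, 8 with the detected percentile, 4 with the filter on all 12 arrays, 0 without a filter or without both arrays of control replicate 1, and 0 to 2 without single arrays. In resting cells the Dock2 difference was -2.76 on the brighter probe with median scaling, -1.80 with the detected percentile, -1.68 and -1.64 on the brighter and dimmer probes with normexp, and -1.94 and -2.02 within slide 2, where the dimmer stimulated difference was -1.39. Member probes below -1 at rest numbered 2, and 9 with median scaling or 1 with the filter on all 12 arrays or the brightest probe of each gene. The median of all probes at rest was itself -0.83 with median scaling, against -0.22. The share of all probes below -1 is not given, so these counts are no result about the members. Of the stimulation calls outside Dock2, median scaling left 0 of 3 in control and 0 of 4 in knockout cells, the detected percentile gave 5 in control, and no filter left 1 in knockout cells. With the replicate block the dimmer Dock11 probe passed in knockout stimulation (adjusted p = 0.0477), and the block changed no other member's call. The cause was not tested for any of these.

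Signs turned for several values, among them the resting Elmo1 difference of 0.52. Quantile normalization gave 0.04 (resting), 0.11 (stimulated knockout), -0.15 and -0.07 (control and knockout stimulation) for the dimmer Rac1 probe, 0.27 for brighter Dock11 in the stimulated knockout comparison and -0.12 for Rac2 in knockout stimulation. Median scaling gave -0.09 for Elmo1 at rest and, in the stimulated knockout comparison, -0.47 and -0.46 for Dock10, -0.48 for dimmer Dock11 and -0.44 for Rac2. The detected percentile gave 0.04, 0.16, -0.21 and -0.09 for dimmer Rac1 in those 4 comparisons, 0.09 for Dock8 and 0.34 for brighter Dock11 in stimulated knockout, -0.01 for dimmer Dock10 in control stimulation, and -0.30 for Elmo1 and -0.04 for Rac2 in knockout stimulation. Normexp gave 0.04 for brighter Dock11 in stimulated knockout and 0.03 for Elmo1 in control stimulation. Without single arrays the ranges crossed 0 in the stimulated knockout comparison for brighter Dock10 (-0.08 to 0.21), Dock11 (-0.21 to 0.07 and -0.10 to 0.21) and Rac2 (-0.01 to 0.21), and with stimulation for dimmer Rac1 in control (-0.01 to 0.29) and Elmo1 in knockout cells (-0.28 to 0.20). Without control stimulated replicate 1 or both arrays of control replicate 1, brighter Dock11 gave 0.03, without control stimulated replicate 2 the dimmer gave -0.07, and without knockout resting replicate 3 Elmo1 gave -0.06.

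Over all probes, calls in the stimulated knockout comparison numbered 930, against 2127 with the replicate block, 1498 with the slide block, 598 with quantile normalization, 2724 with the detected percentile, 58 without a filter, 1723 with the filter on all 12 arrays, 1777 with trend and robust, 158 to 1772 without single arrays and 60 without both arrays of control replicate 1. Resting calls numbered 3, and 0 to 99 over the settings. Stimulation calls fell to 3914 and 1941 with median scaling and to 4584 and 1884 without a filter, from 7452 and 4222. They were 7555 and 5210 with quantile normalization and 9951 and 5655 with the detected percentile. Pathway genes called with stimulation numbered 22 and 13, and 36 and 25 with quantile normalization, 37 and 27 with the detected percentile, 13 and 4 with median scaling and 14 and 4 without a filter. Detection of dim probes limited Dock1, Dock9, Elmo1 and the dimmer Dock2 probe.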

Other observations

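Marker sums of further cell types, on the linear scale where 1 is the array's 75th percentile, also differed between groups. The plasma cell sum was 80.0 to 98.7 in control and 152 to 211 in knockout resting samples. The 5 granulocyte markers that passed the filter summed to 4.24 to 51.0 in control resting, 13.6 to 70.7 in knockout resting, 0.998 to 4.07 in control stimulated and 2.57 to 13.7 in knockout stimulated samples. The 3 erythroid markers summed to 3.14 to 50.8, 38.8 to 158, 0.285 to 1.05 and 1.90 to 7.87 in the same order. Platelet markers summed to 5.10 to 11.6, 9.53 to 13.5, 0.371 to 1.87 and 0.970 to 1.42, and the 2 endothelial and stromal markers that passed the filter to 4.94 to 8.67, 3.84 to 7.57, 4.20 to 11.3 and 3.62 to 6.55, with Cdh5, Col1a1 and Col3a1 not above background.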
